A study of Mus musculus with 24 samples.

Results

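The genes described here carry out creatine synthesis, creatine uptake, phosphate transfer to and from creatine, and the hydrolysis of phosphocreatine in brown adipose tissue (BAT). The members were chosen by symbol: Ckb, Ckmt1, Ckmt2, Gatm, Gamt, Slc6a8 and Alpl, 7 genes in all, with the muscle kinase Ckm left outside. Of these, 4 (Ckb, Gamt, Slc6a8 and Alpl) were among the 12615 genes of the count table, and all 4 passed the filter on low counts that left 12485 genes for testing. Ckmt1, Ckmt2 and Gatm are not analysed here.

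In a creatine cycle, creatine kinases move the terminal phosphate of ATP onto creatine, and hydrolysis of the phosphocreatine that results returns creatine without making ATP, so that turnover of the cycle consumes ATP and releases heat. In brown adipocytes this cycle is known as a source of heat beside UCP1, the proton carrier that uncouples respiration. Creatine itself is made from arginine, glycine and a methyl group in a pair of enzymatic steps, the second of which is carried out by GAMT, or is taken up from blood by the transporter SLC6A8. CKB is the brain-type creatine kinase of the cytosol, and ALPL is the tissue-nonspecific alkaline phosphatase, which has been described in thermogenic fat as the enzyme that hydrolyses phosphocreatine.

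BAT of 24 mice was profiled by a kit that reads 1 tag close to the transcript's 3′ end, with 6 mice in each of 4 groups. All mice carried floxed alleles of both corepressor genes (TBLR1 fl/fl and TBL1 fl/fl) and, by the protocol in the labels, all were injected with tamoxifen. Mice labelled BATdKO were positive for Ucp1CreERT2, a tamoxifen-inducible Cre recombinase under the Ucp1 promoter, so that recombination was directed to cells that use this promoter, and mice labelled Cre- were negative for it. The mice were raised at 22°C and the temperature protocol began 3 weeks after the last injection. The warm groups then spent 4 days at 30°C. The cold groups passed through 18, 16 and 12°C for 1 day each and spent 6 days at 8°C by the labels, where the study's text gives a shorter stay. The labels put the age at injection at 5 years, where the methods give weeks, and they describe females, where a legend of the study describes males. The identifiers of the libraries form separate runs for the 30°C and the 8°C groups, and anything that went with these runs cannot be told apart from temperature. Mice are called m1 to m6 within a group, which pairs none between groups.

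Total counts per library ranged from 699703 (m4 labelled Cre- at 30°C) to 11527643. Levels are given as CPM (tag counts scaled to a common library size, here TMM-normalised). Because the kit makes a single tag per transcript, CPM were not divided by transcript length. Both targeted genes were higher, not lower, under the BATdKO label: Tbl1xr1, which encodes TBLR1, had a mean of 39.9 ± 4.01 CPM in the libraries labelled BATdKO at 8°C and 20.9 ± 2.24 CPM in those labelled Cre- (SD, n = 6 each; adjusted p = 0.00348), and Tbl1x had 53.8 ± 6.76 against 40.7 ± 1.88 CPM (adjusted p = 0.0633). Whether tags close to the 3′ end fall after recombination was not tested. Genotypes are therefore named by their label throughout, and every direction between genotypes is a direction between labels. At 30°C a pair of libraries stood with the other label, since Tbl1xr1 was at 38.6 CPM in m6 labelled Cre- (16.4 to 24.6 CPM in the other 5) and at 17.0 CPM in m6 labelled BATdKO (29.8 to 42.0 CPM in the other 5). Results that involve the 30°C groups were therefore also computed without both m6 mice, and are given both ways where a call changed.

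All 12 markers of brown adipocytes were detected, with summed levels of 691 to 4222 CPM (Cre-) and 1245 to 4164 CPM (BATdKO) at 30°C and of 2620 to 4839 CPM (Cre-) and 2955 to 5734 CPM (BATdKO) at 8°C. All 10 markers of hepatocytes were detected as well, and at higher levels: they summed to 32800 to 45370 CPM (Cre-) and 31610 to 40110 CPM (BATdKO) at 30°C, and to 35300 to 42230 CPM (Cre-) and 36150 to 46190 CPM (BATdKO) at 8°C. Alb, which encodes serum albumin, was not under 5690 CPM in any library, and Ucp1 did not exceed 2076 CPM. Transcripts of Xist and of the Y-linked gene Ddx3y were both present in every library, at 20.5 to 50.2 CPM and 21.8 to 36.5 CPM. The sample label therefore names brown fat only, while the tags of each library included abundant transcripts that liver is known for and transcripts of both sexes. In bulk tissue, fewer cells of a type and less RNA per cell cannot be told apart.

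The promoter windows of members whose levels are described below are shown first, as a description of their start sites only. Of the 4 members analysed, 3 were matched by symbol in the RefSeq table of build GRCm38.p6, and each window runs from 250 bases before to 50 bases after an annotated start, on the minus strand in each case. Capitals mark every match, on either strand, to 5 motifs: the TATA box TATAAA, the CCAAT box CCAAT, the GC box GGGCGG, the core of the cAMP response element TGACG, and the nuclear receptor motif AGGTCA.
Ckb, chr12:111672289-111672588: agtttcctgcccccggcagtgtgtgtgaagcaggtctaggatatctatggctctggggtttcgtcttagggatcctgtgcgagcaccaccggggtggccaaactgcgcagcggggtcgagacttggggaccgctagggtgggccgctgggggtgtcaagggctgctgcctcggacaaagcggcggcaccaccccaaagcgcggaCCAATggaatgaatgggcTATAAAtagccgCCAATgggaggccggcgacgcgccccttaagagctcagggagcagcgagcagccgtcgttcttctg
Gamt, chr10:80260963-80261262: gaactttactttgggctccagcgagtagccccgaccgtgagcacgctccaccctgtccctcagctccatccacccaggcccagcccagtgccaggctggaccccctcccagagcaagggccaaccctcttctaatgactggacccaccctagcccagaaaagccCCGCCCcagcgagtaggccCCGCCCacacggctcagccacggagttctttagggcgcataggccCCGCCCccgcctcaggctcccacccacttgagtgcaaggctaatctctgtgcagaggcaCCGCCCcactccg
Alpl, first promoter, chr4:137796335-137796634: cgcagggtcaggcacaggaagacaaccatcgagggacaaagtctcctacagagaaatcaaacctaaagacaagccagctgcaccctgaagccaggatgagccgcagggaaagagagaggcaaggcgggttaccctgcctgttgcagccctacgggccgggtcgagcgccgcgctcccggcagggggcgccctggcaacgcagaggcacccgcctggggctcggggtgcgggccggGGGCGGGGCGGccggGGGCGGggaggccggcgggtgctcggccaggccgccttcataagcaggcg
Alpl, second promoter, chr4:137766426-137766725: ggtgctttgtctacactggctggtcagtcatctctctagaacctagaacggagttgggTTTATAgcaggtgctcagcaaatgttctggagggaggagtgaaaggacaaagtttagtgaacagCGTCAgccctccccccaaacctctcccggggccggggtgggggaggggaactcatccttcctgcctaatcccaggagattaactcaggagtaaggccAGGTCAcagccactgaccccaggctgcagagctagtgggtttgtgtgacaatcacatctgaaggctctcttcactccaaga
The Ckb window held a TATA box at position -28 from the start and CCAAT boxes at -46 and -16, counted by the first base of the match. Over all 32851 promoter windows of the table, 13.6% held TATAAA and 37.4% held CCAAT. The Gamt window held 4 GC boxes and the first Alpl window 3, of which 2 overlapped by 1 base. GC boxes were found in 35.7% of all windows. The second Alpl start lies 29909 bases from the first, and its window held the nuclear receptor motif at -31 (16.3% of all windows), a cAMP core at -128 (20.8%) and the TATA letters on the opposite strand at -192. A match is a description of these letters and not a bound site. Tags near the 3′ end do not tell which Alpl promoter a transcript came from.

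Creatine synthesis was represented by Gamt (ENSMUSG00000020150, chr10:80258151-80261012 of GRCm38, minus strand), the methyltransferase that turns guanidinoacetate into creatine. At 30°C its lowest, median and highest levels were 88.0, 109 and 125 CPM in the libraries labelled Cre- and 91.5, 108 and 118 CPM in those labelled BATdKO. At 8°C they were 91.0, 102 and 107 CPM (Cre-) and 96.3, 110 and 119 CPM (BATdKO). The 4 groups overlapped almost entirely, and Gamt was the most evenly expressed member, with coefficients of variation between 6.21% and 12.2% within groups. None of the contrasts passed the threshold of an adjusted p of 0.1 in edgeR's quasi-likelihood test: the log2 fold change with cold was -0.10 (SE 0.08, adjusted p = 0.583) in Cre- mice and 0.02 (SE 0.08, adjusted p = 0.96) in mice labelled BATdKO. Between labels the log2 difference was 0.09 (SE 0.08, adjusted p = 0.827) at 8°C and -0.02 (SE 0.08, adjusted p = 0.987) at 30°C. The cold value in Cre- mice depended on the scaling. With library sizes taken as plain totals, which moved the median log2 change of all tested genes with cold to -0.20 in Cre- mice and -0.19 in mice labelled BATdKO (from -0.02 and -0.00 under TMM), Gamt changed by -0.27 with an adjusted p of 0.0515, a step close to that of the median gene.

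Gamt varied with the hepatocyte transcripts from library to library. Over the 24 libraries, Pearson's r between Gamt and the mean log2 CPM of the 10 hepatocyte markers was 0.764 (Spearman's rho 0.729), and 0.826 after each group's mean was taken off both. For the other members the same r was -0.11 (Slc6a8), 0.00 (Ckb) and 0.21 (Alpl), and after group means were taken off -0.03, -0.46 and 0.09. With the 12 brown adipocyte markers, Gamt gave r = -0.466. These points share library composition, so that a larger share of one tissue's tags lowers the CPM of the other's, and the correlations describe these libraries only. Among all tested genes the patterns most like that of Gamt belonged to Itih4 (r = 0.866) and Cfi (r = 0.863) over the same 24 libraries, both known as products of liver. How much of the Gamt signal came from brown adipocytes was not tested.

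**Figure D1:**
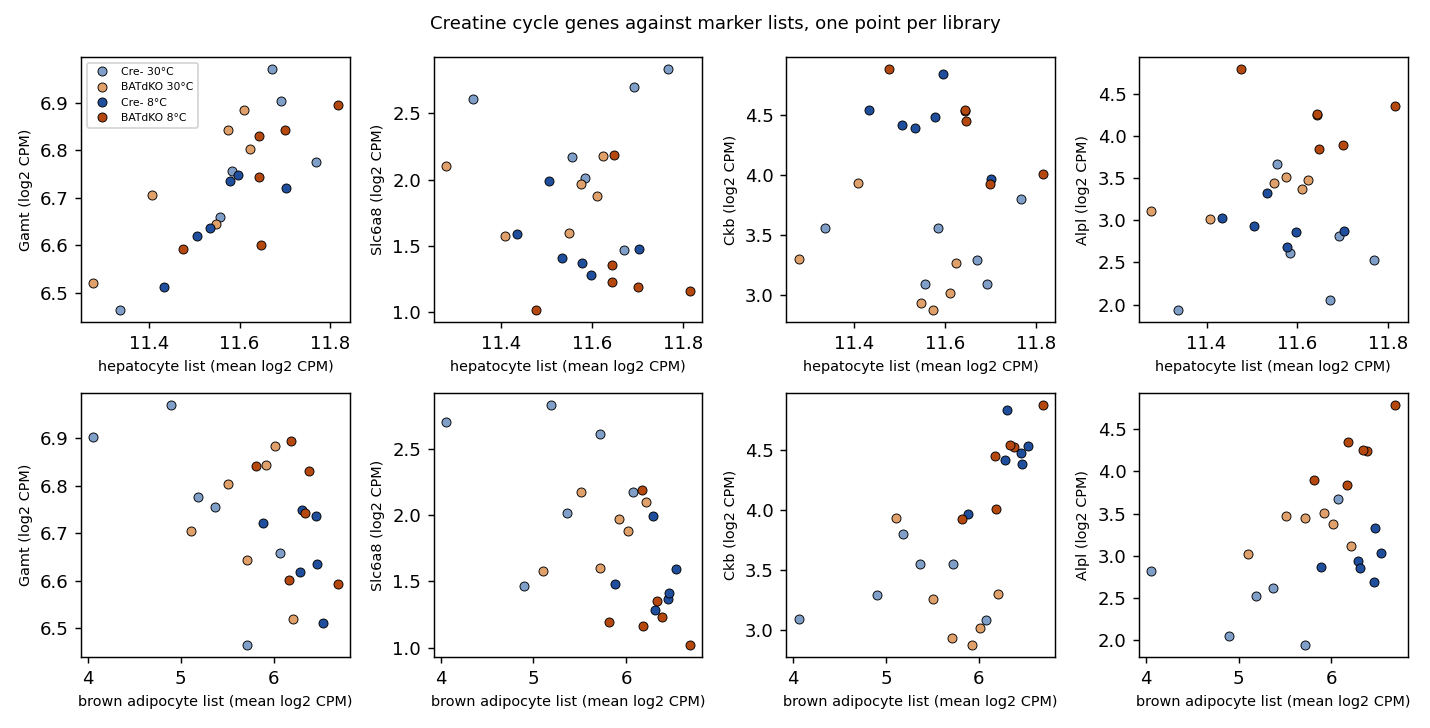
Log2 CPM of each member (y axes) against the mean log2 CPM of the hepatocyte list (upper row, x axis) and of the brown adipocyte list (lower row, x axis), with 1 point per library coloured by group. Gamt rises with the hepatocyte list across libraries of every group (r = 0.764), Ckb does not over all libraries (r = 0.00, and -0.46 after group means were taken off), and the 8°C libraries form the upper cloud of Ckb.

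Genes of the metabolism around creatine synthesis gave few calls with cold. Of a list of 22 genes of arginine, ornithine and methyl donor metabolism, 21 were tested, and with cold 2 rose and 1 fell in Cre- mice, where 9.15% of all 12485 tested genes passed in either direction. In mice labelled BATdKO, 0 rose and 1 fell with cold, where 7.07% of all tested genes passed. The list's median log2 change was -0.05 and 0.08, where the median over all tested genes was -0.02 and -0.00. Ahcyl2, a relative of the hydrolase that clears S-adenosylhomocysteine, fell by 0.86 on the log2 scale in Cre- mice (SE 0.20, adjusted p = 0.00661) and fell by 0.84 in mice labelled BATdKO (SE 0.18, adjusted p = 0.00537). It was also the 1 gene of the list that differed between labels at 8°C, where 1.82% of all tested genes did, with means of 10.7 CPM (BATdKO) and 5.87 CPM (Cre-) and a log2 difference of 0.84 (SE 0.20, adjusted p = 0.0301). Ahcyl1 rose with cold in Cre- mice from 89.4 to 129 CPM (adjusted p = 0.0455). The enzymes of the list that are known from liver had high and even levels, as Gamt did: Mat1a, which makes S-adenosylmethionine in liver, had group means of 1590 to 1760 CPM, and Gnmt, which consumes it, 1000 to 1110 CPM.

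Creatine uptake was represented by Slc6a8 (ENSMUSG00000019558, chrX:73673150-73682502, plus strand), the creatine transporter of the plasma membrane. It was the least abundant member, with 4 to 74 counts per library. At 30°C the lowest, median and highest levels were 2.48, 5.02 and 6.83 CPM in the libraries labelled Cre- and 2.70, 3.52 and 4.24 CPM in those labelled BATdKO. At 8°C they were 2.15, 2.44 and 3.69 CPM (Cre-) and 1.74, 2.03 and 4.28 CPM (BATdKO). The group means thus ran from 4.89 CPM in Cre- mice at 30°C through 3.45 (BATdKO, 30°C) and 2.63 (Cre-, 8°C) to 2.39 CPM (BATdKO, 8°C), with overlap between all neighbours. Counting alone gives coefficients of variation of 21.0% to 28.7% at these depths, and the observed ones were 18.4% to 39.5%.

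Slc6a8 was lower in the cold in Cre- mice, with a log2 fold change of -0.81 (SE 0.22, adjusted p = 0.0241), and 3 of the 6 cold libraries lay under every warm one. This fall passed in all 24 fits that each left out 1 mouse, with log2 values of -0.95 to -0.70 and adjusted p up to 0.0814. The highest warm Cre- levels were 6.83 CPM in m4, the shallowest library (5 counts), 6.22 CPM in m3 and 5.82 CPM in m1. In mice labelled BATdKO the log2 change was -0.49 (SE 0.24), which did not pass the threshold (adjusted p = 0.285), although 5 of the 6 cold libraries lay under every warm one. The remaining library, m3 at 4.28 CPM, was the highest of its group, and without it the change was -0.74 and passed (adjusted p = 0.0829). It also passed with plain totals as library sizes (-0.68, adjusted p = 0.0611). The cold changes under the 2 labels were not shown to differ (interaction 0.32, SE 0.33, adjusted p = 0.853). Between labels, the log2 difference was -0.12 (SE 0.25, adjusted p = 0.958) at 8°C and -0.44 (SE 0.21, adjusted p = 0.479) at 30°C. Skeletal muscle transcripts varied widely among the warm Cre- libraries (17 of 21 markers analysed, summed 63.7 to 13640 CPM at 30°C and 52.6 to 3312 CPM at 8°C). The muscle kinase Ckm was highest in m3 and m1 labelled Cre- at 30°C (348 and 167 CPM). Muscle transcripts had r = 0.338 with Slc6a8 over the 24 libraries, and their part in the result was not tested.

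Among the related carriers, Slc6a6, the taurine transporter, moved the other way. It rose with cold from a mean of 41.2 to 70.1 CPM in Cre- mice (log2 fold change 0.74, SE 0.08, adjusted p = 1.09e-06) and from 40.7 to 61.7 CPM in mice labelled BATdKO (0.60, SE 0.08, adjusted p = 3.11e-05). The other carriers tested, Slc6a12 and Slc6a13, which carry betaine and GABA, passed no contrast, so that of the 4 tested SLC6 genes 1 rose and 1 fell with cold in Cre- mice and 1 rose in mice labelled BATdKO (9.15% and 7.07% of all tested genes passed). Gene patterns most like that of Slc6a8 over the 24 libraries were Rgs10 (r = 0.782) and Mdp1 (r = 0.757).

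Ckb (ENSMUSG00000001270, chr12:111669361-111672338, minus strand) was the only creatine kinase of the 7 genes with values here, and it rose in the cold under both labels. At 30°C the lowest, median and highest levels were 8.24, 10.5 and 13.7 CPM in the libraries labelled Cre- and 7.06, 8.56 and 15.0 CPM in those labelled BATdKO. At 8°C they were 15.4, 21.6 and 28.3 CPM (Cre-) and 14.9, 22.2 and 29.2 CPM (BATdKO). All cold Cre- libraries were above all warm ones. Among the libraries labelled BATdKO a single warm library, m6 at 15.0 CPM, reached the lower edge of the cold range, which began at 14.9 CPM.

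The rise with cold was 2.17-fold in Cre- mice (log2 1.12, SE 0.18, adjusted p = 0.000124) and 2.24-fold in mice labelled BATdKO (log2 1.17, SE 0.18, adjusted p = 0.000151). It passed the threshold in all 24 fits that each left out 1 mouse, with log2 values of 1.03 to 1.20 and of 1.08 to 1.34. Without both m6 mice at 30°C the log2 changes were 1.06 and 1.34. No difference between labels passed: the log2 difference was -0.06 (SE 0.17, adjusted p = 0.973) at 8°C, -0.11 (SE 0.19, adjusted p = 0.924) at 30°C, and 0.05 (SE 0.25, adjusted p = 0.998) for the interaction.

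Ckb rose less than Ucp1, which had an 8.56-fold rise in Cre- mice (mean 177 to 1539 CPM, adjusted p = 2.67e-05) and a 5.82-fold rise in mice labelled BATdKO (290 to 1685 CPM, adjusted p = 0.000389). The genes most like Ckb across the 24 libraries were Pfkl (r = 0.930, and 0.813 after group means were taken off) and Prelid3b (r = 0.902 and 0.706). With the brown adipocyte markers Ckb had r = 0.596, which fell to 0.125 once group means were taken off. The same values were 0.691 and 0.390 with the 8 endothelial markers, and -0.62 and -0.558 with the 7 macrophage markers. Of the 8 endothelial markers, 3 rose with cold in Cre- mice and 2 in mice labelled BATdKO (9.15% and 7.07% of all tested genes passed), with list medians of 0.37 and 0.02 on the log2 scale, and their sum was 176 to 214 CPM (Cre-) and 188 to 226 CPM (BATdKO) at 30°C and 207 to 273 CPM (Cre-) and 213 to 267 CPM (BATdKO) at 8°C. Nerve markers (3 of 8 analysed) summed to 14.7 to 32.7 CPM at 30°C and 35.7 to 63.7 CPM at 8°C in Cre- mice, and to 13.2 to 27.9 CPM and 14.7 to 22.9 CPM in mice labelled BATdKO. That sum followed S100b (means of 10.7 and 36.3 CPM in Cre- mice), while Mbp had 7.82 and 8.32 CPM and Ncam1 2.90 and 1.88 CPM. The part of other cell types in the Ckb rise was not tested.

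**Figure D2:**
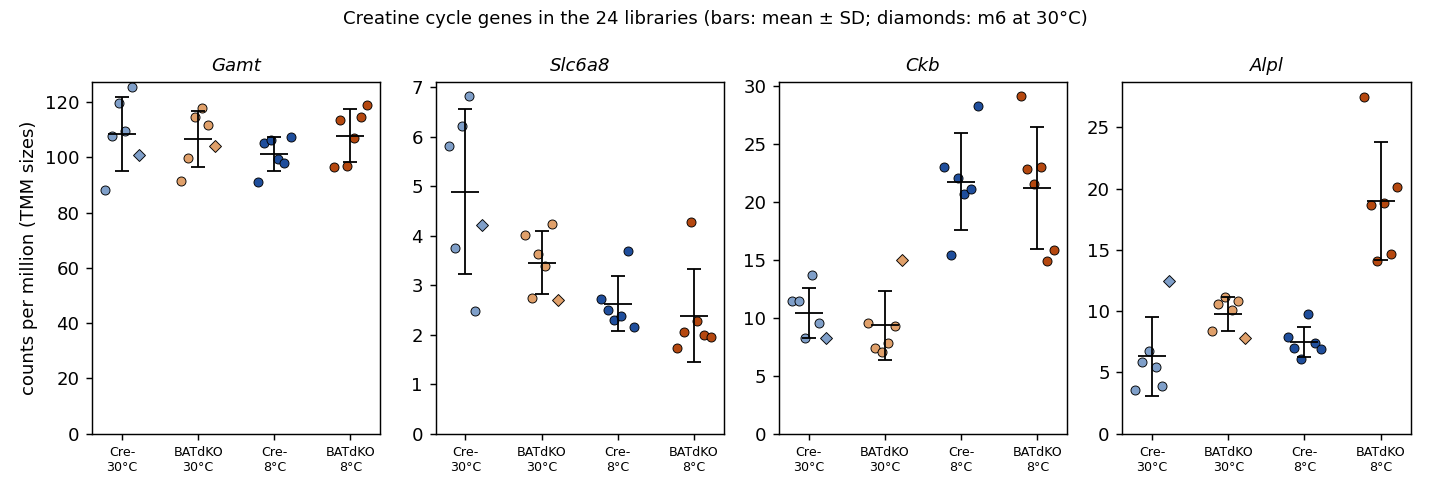
CPM of the 4 members (y axes, from 0) in each of the 24 libraries, by label and temperature, with points for mice, diamonds for both m6 mice at 30°C, and black bars for the mean ± SD of 6 mice. Ckb is high at 8°C under both labels, Alpl is highest in the 6 libraries labelled BATdKO at 8°C (14.1 to 27.4 CPM), Slc6a8 has lower means at 8°C (2.63 and 2.39 CPM) and the Gamt ranges overlap.

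Muscle creatine kinase, Ckm, is not a member but shares the reaction. It ranged from 0 to 348 CPM over the libraries, with 167 and 348 CPM in m1 and m3 labelled Cre- at 30°C and at most 32.9 CPM in any other. No contrast of Ckm passed the threshold (adjusted p = 0.107 for cold in Cre- mice and 0.194 between labels at 30°C). Ckm tags outnumbered Ckb tags in 7 of the 24 libraries.

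Phosphocreatine hydrolysis was represented by Alpl (ENSMUSG00000028766, chr4:137741733-137796384, minus strand), and it was the member whose level followed the label. At 8°C its lowest, median and highest levels were 14.1, 18.8 and 27.4 CPM in the libraries labelled BATdKO and 6.14, 7.20 and 9.74 CPM in those labelled Cre-. At 30°C they were 7.81, 10.4 and 11.1 CPM (BATdKO) and 3.54, 5.66 and 12.5 CPM (Cre-). Every library labelled BATdKO at 8°C lay above each of the other 18.

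Between labels at 8°C Alpl differed 2.44-fold (log2 1.29, SE 0.21, adjusted p = 0.00107). Both targeted genes were also higher under the BATdKO label, so the direction is given between labels only. With cold Alpl rose 1.89-fold in mice labelled BATdKO (log2 0.92, SE 0.21, adjusted p = 0.00865). Both results passed in all 24 fits that each left out 1 mouse, with log2 values of 1.19 to 1.39 and of 0.81 to 0.99. In Cre- mice the cold change was 0.23 (SE 0.23, adjusted p = 0.659), and between labels at 30°C the difference was 0.60 (SE 0.22, adjusted p = 0.327).

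These last values turned on a single library. Alpl was at 12.5 CPM in m6 labelled Cre- at 30°C, where the other 5 of that group had 3.54 to 6.76 CPM, and it was lowest of its group (7.81 CPM) in m6 labelled BATdKO. These are the libraries whose Tbl1xr1 level stood with the other label. Their brown adipocyte markers also stood at the edge of their groups. The markers summed to 4222 CPM in m6 labelled Cre-, with 691 to 2235 CPM in the other 5. They summed to 1245 CPM in m6 labelled BATdKO, with 2196 to 4164 CPM in the other 5. Over the 24 libraries Alpl had r = 0.5 with these markers, and 0.324 after group means were taken off. Their part in the Alpl values was not tested. Without m6 labelled Cre-, the difference between labels at 30°C was 0.99 (adjusted p = 0.00703) and the cold rise in Cre- mice was 0.61 (adjusted p = 0.0446). Without both m6 mice they were 1.04 (adjusted p = 0.00264) and 0.61 (adjusted p = 0.0398), and the cold rise in mice labelled BATdKO was 0.85 (adjusted p = 0.00161). The interaction was 0.69 (SE 0.31, adjusted p = 0.579) with all libraries and 0.24 (adjusted p = 0.769) without both m6 mice, so that a larger cold response of Alpl under the BATdKO label was not shown.

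**Figure D3:**
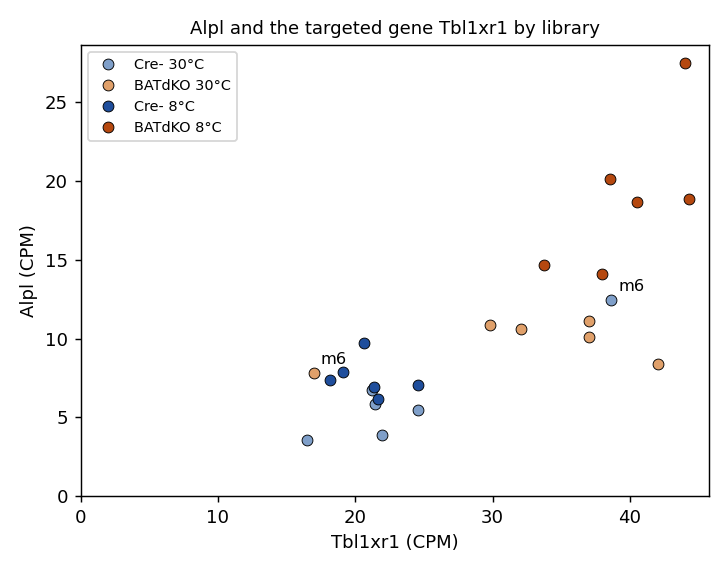
Alpl (y axis, CPM) against the targeted gene Tbl1xr1 (x axis, CPM), 1 point per library, coloured by label and temperature. The m6 library labelled Cre- at 30°C (38.6 CPM of Tbl1xr1, 12.5 CPM of Alpl) lies among those labelled BATdKO, and the m6 library labelled BATdKO (17.0 and 7.81 CPM) among those labelled Cre-.

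Gene patterns most like that of Alpl were Psma1 (r = 0.883, and 0.696 after group means were taken off) and Dgat2 (r = 0.879 and 0.619). Alpl is also known from other cell types, among them neutrophils, endothelium and bone-forming cells. The neutrophil list (3 of 8 with values, of which 2 were tested) had 0 genes past the threshold in any contrast. Its sum at 8°C was 14.0 to 16.9 CPM (Cre-) and 15.0 to 21.6 CPM (BATdKO). None of the 8 endothelial and none of the 10 hepatocyte markers passed the threshold between labels at 8°C. The hepatocyte list had r = 0.211 with Alpl over the 24 libraries, and 0.0868 after group means were taken off. The mesothelial list (4 of 6 with values, of which 2 were tested) summed to 45.8 to 56.4 CPM (Cre-) and to 60.2 to 68.4 CPM (BATdKO) at 8°C without overlap. Its marker Lrrn4 was higher under the BATdKO label (8.58 against 0.644 CPM, log2 3.65, SE 0.43, adjusted p = 1.38e-05). The other markers of the list had close means, with 53.0 against 50.4 CPM for Krt8, 0.815 against 0.742 CPM for Krt19 and 0.724 against 0.733 CPM for Upk3b. The part of these cell types in the Alpl result was not tested.

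Relatives of ALPL in phosphate and zinc handling gave a single call. Of 10 tested genes of that list, 0 rose in any contrast and 1 fell, a share close to the 9.15% of all tested genes that passed in that contrast. The gene was Enpp1, which makes the pyrophosphate that ALPL is known to hydrolyse: it went from a mean of 13.4 to 8.77 CPM with cold in Cre- mice (log2 -0.50, SE 0.17, adjusted p = 0.0769). The transporters that load zinc into alkaline phosphatases, Slc30a5, Slc30a6 and Slc30a7, had group means of 2.27 to 4.42 CPM and passed no contrast.

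Set against all tested genes, the members moved as follows. With cold in Cre- mice 1 member rose and 1 fell, where 9.15% of the 12485 tested genes passed in either direction, and with cold in mice labelled BATdKO 2 rose, where 7.07% passed. At 8°C 1 member, Alpl, differed between labels, where 1.82% of genes did. Between labels at 30°C no member passed, and neither did any gene by edgeR (0%, with 1303 genes at an unadjusted p under 0.05 and 90 called by DESeq2). For the interaction no member passed among 0.0961% of genes (12 by edgeR, 1005 at an unadjusted p under 0.05, 51 by DESeq2). Ranges that did not overlap were seen for 1 member with cold in Cre- mice (Ckb), 1 with cold in mice labelled BATdKO (Alpl) and 1 between labels at 8°C (Alpl), where 2.93%, 2.99% and 1.95% of tested genes had such ranges. With 4 members these shares describe the members and no more. The members did not share 1 pattern: over the 24 libraries, r between pairs of them ran from -0.533 (Ckb with Slc6a8) to 0.293 (Ckb with Alpl), and after group means were taken off from -0.359 to 0.009.

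**Figure D4:**
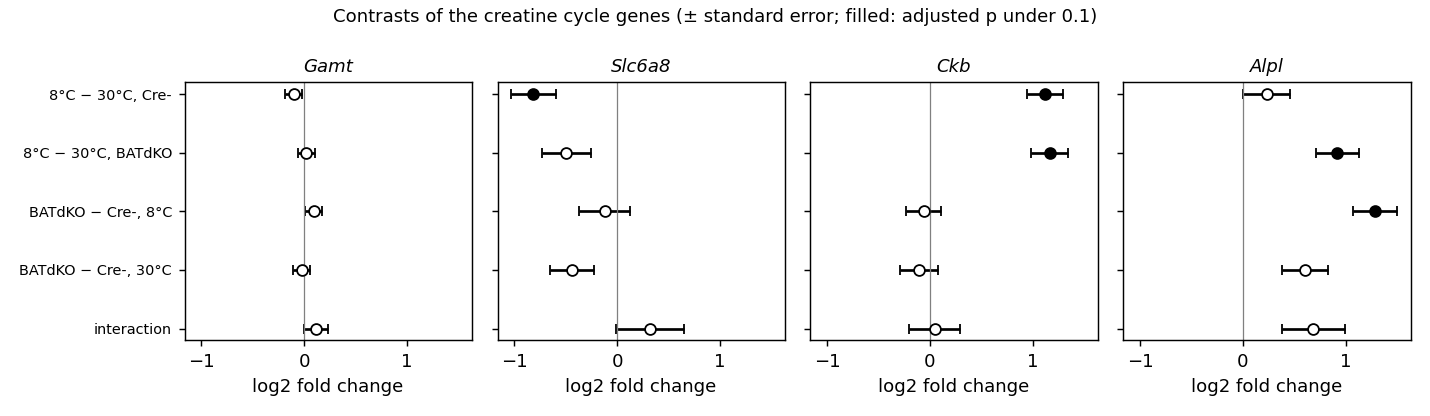
Log2 fold changes (x axes) of the 4 members in the 5 contrasts (rows), with bars for ± 1 standard error and filled points for an adjusted p under 0.1. Ckb passes in both cold contrasts, Slc6a8 in the cold contrast of Cre- mice, Alpl in the cold contrast of mice labelled BATdKO and between labels at 8°C, and Gamt in none.

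Adenylate kinases, which also move phosphate between nucleotides, were represented with nucleoside diphosphate kinases by 7 tested genes, of which 0 passed with cold in Cre- mice and 2 rose in mice labelled BATdKO (7.07% of all tested genes passed), among them Ak4 from 10.9 to 15.3 CPM (adjusted p = 0.0221). The list's medians were 0.10 and 0.13. None of the 8 tested ADP/ATP carriers and outer membrane channels passed any contrast, with medians of -0.03 and 0.10 for cold. The list of other heat-producing cycles (uncoupling, calcium pumping and lipid turnover) had 11 tested genes, Ucp1 among them. Of these, 3 rose with cold in Cre- mice and 5 in mice labelled BATdKO, beside the same 9.15% and 7.07% of all tested genes. The list's medians were 0.24 in both. Gk, the kinase that returns glycerol to lipid synthesis, rose with cold in Cre- mice by 1.25 (SE 0.12, adjusted p = 1.85e-07) on the log2 scale, a value close to that of Ckb, and Dgat2, which closes the triglyceride cycle, was the 1 gene of that list higher under the BATdKO label at 8°C (522 against 270.3 CPM, adjusted p = 3.82e-05), as Alpl was.

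**Figure D5:**
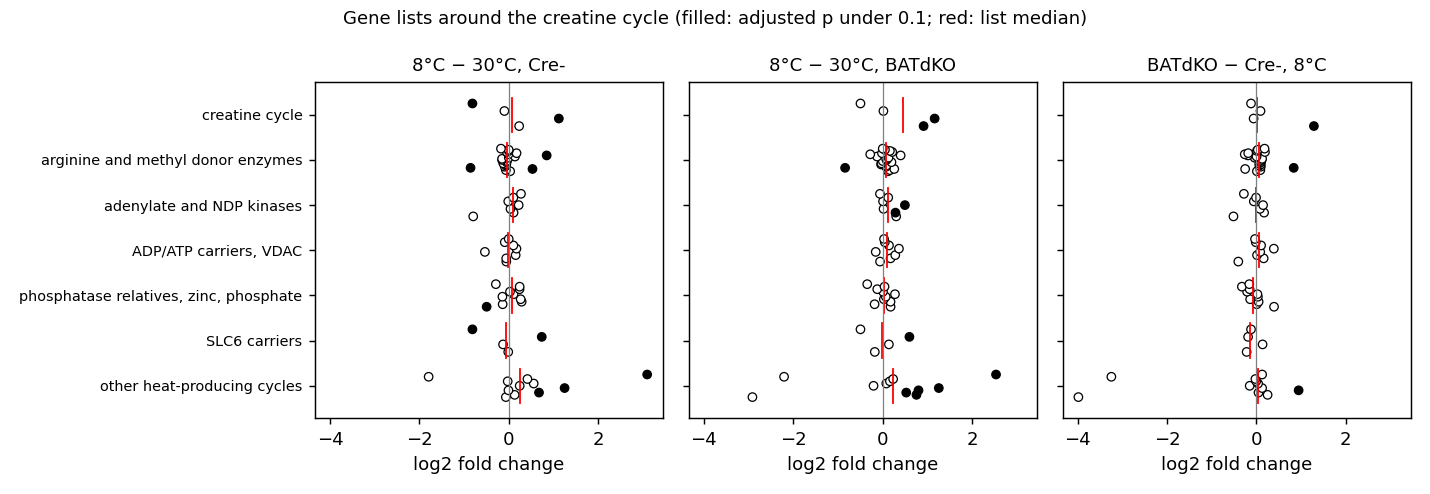
Log2 fold change (x axes) of every tested gene of 7 lists around the creatine cycle (rows), for cold under each label and for the label at 8°C, with filled points for an adjusted p under 0.1 and red lines for list medians. Most genes of the synthesis, nucleotide kinase and carrier lists sit near 0, and the filled points to the right are mainly Ckb, Alpl and genes of the other heat-producing cycles.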

How the data were processed

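The authors trimmed the forward reads of the 3′ tag libraries, aligned them to GRCm38 and summed them per gene, and deposited raw counts without normalization. The annotation release, the use of strand in counting and the rule that left genes out of the table are not given in the sources used here. The study describes the removal of outliers without naming them, so all 24 libraries were used.

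The analysis used R 4.3.3 and edgeR 4.0.16, with TMM, filterByExpr on the 4 groups, and a quasi-likelihood fit with a mean for each group over all 24 libraries. Benjamini-Hochberg adjustment ran over the 12485 tested genes, and an adjusted p under 0.1, the study's threshold, was called. Log2 CPM for correlations used a prior count of 2. Simulated counts were used to test both count models. Gene symbols and positions are from GENCODE vM21, and the exons of the 4 members analysed overlap those of no other annotated gene. Replicates differed by more than sampling noise. The mice are separate animals by their labels.

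Members, lists and motifs were chosen with earlier results of these data known. Named genes are the members, both targeted genes, at most 4 genes with the smallest p past the threshold per list and contrast, and the 2 genes most like each member. Some genes that the lists count are not reported here by name. Xist, Ddx3y, Alb, Mat1a, Gnmt, Slc6a12, Slc6a13, the zinc transporters, Mbp, Ncam1, Krt8, Krt19 and Upk3b were named after their values were seen. Alternatives were DESeq2 1.42.0, RLE, upper-quartile and total-count scaling, no filter, a mean count of at least 10, robust dispersion, only the groups compared, a threshold of 0.05 and leaving out each mouse. Leaving out both m6 mice at 30°C, with and without the shallowest library, was added after the values were seen.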

Additional observations from a re-analysis of the deposited data

Results flagged for a closer look

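In 16 sets of 6 libraries (4 members in 4 groups), the library farthest from the rest was compared with Dixon's 95% critical value, which chance exceeds in about 1 of 20 sets, and 3 sets did so. Ckb was at 15.0 CPM in m6 labelled BATdKO at 30°C, far above the other 5 (7.06 to 9.59 CPM). Alpl was at 12.5 CPM in m6 labelled Cre- at 30°C, far above the other 5 (3.54 to 6.76 CPM). Both are the libraries whose Tbl1xr1 level stood with the other label, and whose brown adipocyte sum stood at the edge of its group. Slc6a8 was at 4.28 CPM (24 counts) in m3 labelled BATdKO at 8°C, above 1.74 to 2.27 CPM in the other 5. What sets these libraries apart was not tested.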

How the results depend on the processing

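Over the other normalizations, filters and models and the fits that each left out 1 mouse, the calls of Ckb with cold under both labels, of Alpl at 8°C and with cold in mice labelled BATdKO, and of Slc6a8 with cold in Cre- mice kept their direction and their side of the threshold. Calls gained by Gamt, Slc6a8 and Alpl under another scaling or without a mouse are given with the results, and the cause of each was not tested. With cold in mice labelled BATdKO the Gamt value turned to -0.00317 with upper-quartile and to -0.17 with total-count scaling, and ran from -0.0207 to 0.0485 as mice were left out. Over the same fits its value between labels at 30°C ran from -0.0815 to 0.0268, that of Ckb from -0.142 to 0.0370 at 8°C and from -0.0461 to 0.224 for the interaction, and that of Slc6a8 at 8°C from -0.354 to 0.00369. Members called between labels at 30°C went from 0 to 1 (Alpl) without m6 labelled Cre-, and also without both m6 mice, with or without the shallowest library.

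Counts of all genes called moved more. Total-count scaling gave 3259 and 2812 genes with cold (Cre- and BATdKO) and 27 for the interaction, where the main values were 1143, 883 and 12. A threshold of 0.05 gave 757, 543, 140 (labels at 8°C) and 7 (interaction). Using only the groups compared gave 477 genes between labels at 8°C, against 227. DESeq2 gave 90 between labels at 30°C, against 0, and 51 for the interaction, and robust dispersion gave 21 for the interaction. Without both m6 mice 500 genes were called between labels at 30°C and 44 for the interaction, and without the shallowest library as well 546 and 44, with 1766 for cold in Cre- mice. Leaving out single mice gave 574 (without m4 labelled BATdKO at 8°C) to 1069 with cold in mice labelled BATdKO, 138 (without m5 labelled BATdKO at 8°C) to 276 between labels at 8°C, 0 to 369 (without m6 labelled Cre-) between labels at 30°C, and 7 to 37 (without m2 labelled Cre- at 8°C) for the interaction. Depth limits Slc6a8 most, with 4 to 74 counts per library. No paired analysis was possible because the mouse numbers in the labels are not shared between groups.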
